A study of Homo sapiens with 20 samples.

Results

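Transcript levels of 7 cytokine genes, of 35168 genes in the deposited table, were followed through all 20 libraries: the colony stimulating factors CSF1, CSF2 and CSF3, the IL-6 type cytokines IL6, LIF and IL11, and KITLG, which encodes stem cell factor. They were taken by gene symbol, from a list chosen with earlier results of these data known. The libraries came from 5 established human lines. Acute myeloid leukemia (AML) was represented by THP-1, Kasumi-1 and NOMO-1, while iHUVEC and TIME derive from endothelium, in the case of TIME from microvascular cells immortalised with telomerase. Per line there was 1 library without treatment, 1 with interferon gamma (IFNg), 1 with tumor necrosis factor (TNFa) and 1 with the pair together (IFNg+TNFa), with each cytokine at 10 ng/ml for 24 h. The labels name no genetic change made in any line, and all lines grew in media with added amino acids and growth factors that are not named. A treatment group therefore held 3 AML or 2 endothelial libraries, and the line was the replicate. In treatment comparisons p-values measure how far lines of 1 cell type differ in their response, with 1 spread per gene pooled over both cell types. In comparisons between cell types they measure the spread between lines.

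Colony stimulating factors are secreted proteins that keep blood cell precursors alive and direct their division and maturation. CSF1 acts on monocytes and macrophages through the receptor kinase CSF1R, CSF2 on granulocytes, monocytes and dendritic cells through CSF2RA with CSF2RB, and CSF3 on neutrophils through CSF3R. IL6, LIF and IL11 signal through the shared chain gp130, encoded by IL6ST, with JAK kinases and STAT3 downstream, and stem cell factor acts on the receptor kinase KIT of blood stem cells and mast cells. Endothelium is a known source of several of these proteins in inflammation, and NF-kB, the transcription factor that TNFa activates, is known to act at the CSF2 and IL6 promoters.

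The bases before the start sites of CSF2 and IL6 are shown because these genes stood in opposite order in endothelial libraries with TNFa alone and with both cytokines. Sequences are from RefSeq on GRCh38.p14, plus strand, on chr5:132073539-132073788 for CSF2 and chr7:22726950-22727146 for IL6, where the stretch stops before the first base of the IL6-201 transcript of GENCODE v29. Capitals mark the kB motif in both (overlapping matches on both strands in IL6), CK-1 in CSF2 and C/EBP in IL6.
CSF2: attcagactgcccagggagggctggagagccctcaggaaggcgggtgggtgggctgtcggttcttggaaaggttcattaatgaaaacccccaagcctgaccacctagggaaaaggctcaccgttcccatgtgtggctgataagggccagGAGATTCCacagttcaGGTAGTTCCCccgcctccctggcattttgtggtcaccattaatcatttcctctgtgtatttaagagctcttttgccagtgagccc
IL6: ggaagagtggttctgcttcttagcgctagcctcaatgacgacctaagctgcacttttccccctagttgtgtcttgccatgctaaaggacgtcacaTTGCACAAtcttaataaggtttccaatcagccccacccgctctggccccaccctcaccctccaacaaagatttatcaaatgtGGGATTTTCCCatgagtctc
The RefSeq table held a promoter for 4 of the 7 genes (CSF2, IL6, IL11 and KITLG), and 6 motifs were searched on both strands of the 250 bases before each RefSeq start. The kB motif, GGGA and CC parted by any 4 bases, lay 85 to 76 bases before the start of CSF2, on the minus strand, and 73 to 63 bases before that of IL6. CK-1, GAGATTCC, lay 101 to 94 bases before the CSF2 start, and C/EBP, TTGCNNAA, lay 155 to 148 bases before the IL6 start. The STAT motif GAS, TTCNNNGAA, was found in CSF2, 190 to 182 bases before the start, and the AP-1 motif TGANTCA in IL11, 96 to 90 bases before it. ISRE, the sequence GAAA repeated after any 2 bases, was in none of the 4, and KITLG held none of the 6 motifs. Of 35116 promoters of this length, 22.6% held kB, 0.735% CK-1, 6.57% AP-1, 9.05% C/EBP, 6.57% GAS and 3.02% ISRE.

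The deposited values are TPM, the usual length-corrected share of each library, so sequencing depth is unknown. The number of genes at 1 TPM or more was 7510 to 12353. The listed TPM was 73.2 to 82.1% mitochondrial in NOMO-1 and 11.9 to 24.8% elsewhere, which lowers all other NOMO-1 values. All 12 endothelial markers reached 1 TPM in every endothelial library, with a summed level of 1786 to 4339 TPM against 3.92 to 375 in AML libraries, where CDH5, TIE1, TEK, KDR, VWF, SOX18 and ROBO4 never did. PECAM1, ERG, ESAM, EGFL7 and ENG reached 1 TPM in at least 1 AML library, with EGFL7 at 44.7 to 312 TPM in Kasumi-1. The 12 myeloid and hematopoietic markers summed to 676 to 7836 TPM in AML and 1.92 to 3.9 TPM in endothelial libraries. Fibroblast and mural markers reached 855 TPM in an endothelial library, with COL1A1, COL3A1, DCN, LUM, PDGFRB and THY1 under 1 TPM in every endothelial library and RGS5 at 265 to 854 TPM in iHUVEC. COL1A2 had 1.8 to 16.4 TPM in TIME, and PDGFRA reached 3.49 TPM in iHUVEC and 14.7 TPM in TIME with both cytokines. Epithelial markers summed to at most 107 TPM, in a library of Kasumi-1, where EPCAM alone reached 1 TPM. KRT19 had 6.19 to 23.6 TPM in iHUVEC. Lymphoid markers reached 63 TPM in AML libraries and 0.661 TPM in endothelial ones.

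Changes are differences of log2(TPM + 1) ± the standard error from limma, with p-values adjusted over all genes of the comparison by the Benjamini-Hochberg method and called below 0.05. This scale understates the change of genes at low levels. Of the 7 genes, 6 were tested in the 20-library fit and IL11 never reached 1 TPM. CSF2 and LIF passed the filter on low values only through endothelial libraries treated with TNFa, so their being high there was needed for them to be tested, and CSF3 passed only through endothelial libraries. A lower level in these bulk samples can mean fewer expressing cells or less RNA per cell, which cannot be told apart.

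**Figure D1:**
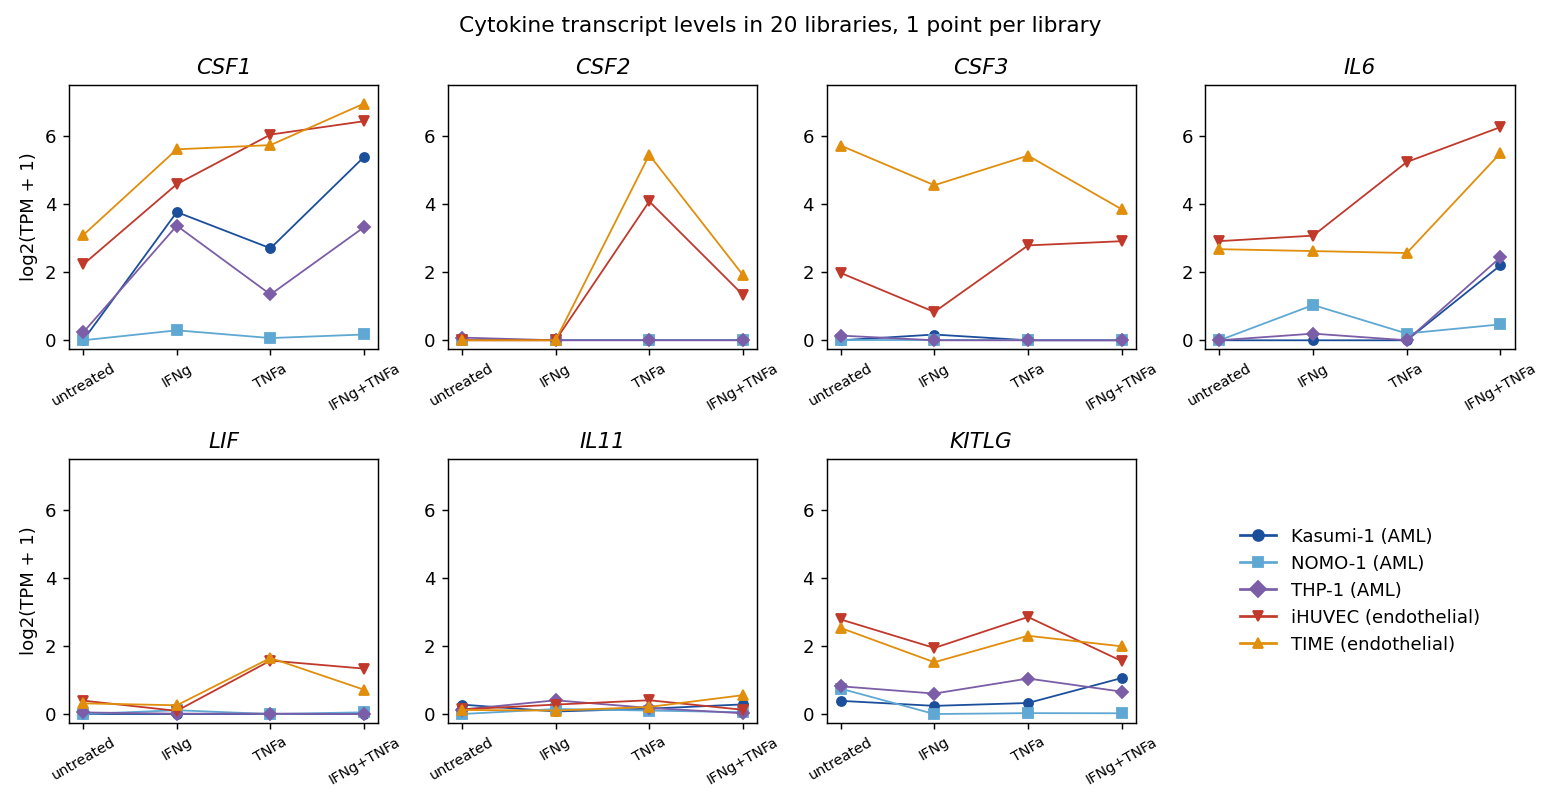
Transcript levels of the 7 cytokine genes as log2(TPM + 1) against treatment, 1 point per library, with lines joining the libraries of 1 cell line. CSF2 was above 1 TPM only in endothelial libraries with TNFa, at 15.9 and 42.6 TPM after TNFa alone and 1.52 and 2.78 TPM after IFNg+TNFa.

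CSF2, which encodes GM-CSF, appeared in both endothelial lines after TNFa and was far lower when IFNg was present too. CSF2 (ENSG00000164400, chromosome 5, 132073790 to 132076170, plus strand, GRCh38) was listed at 0 in untreated iHUVEC and TIME and at 0 after IFNg. After TNFa it had 15.9 TPM in iHUVEC and 42.6 TPM in TIME, and after IFNg+TNFa it had 1.52 and 2.78 TPM. TIME was above iHUVEC after TNFa alone and after both cytokines. Within a line, the level after TNFa alone was 10.5 times that after both cytokines in iHUVEC and 15.3 times in TIME. AML libraries listed CSF2 at 0 except untreated THP-1, at 0.0561 TPM.

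TNFa raised CSF2 in endothelial lines by 4.76 ± 0.27 (n = 2 lines, limma adjusted p = 1.6e-06), a difference from a group listed at 0 and therefore no fold change. The 2 lines' own differences were 4.08 and 5.44, further apart than that error, since a gene at 0 in the AML lines adds almost no spread to the fit. With both cytokines CSF2 was still above untreated cells (1.63 ± 0.27, limma adjusted p = 0.002), a call lost when the term for the line was left out (limma adjusted p = 0.057).

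Adding IFNg to TNFa lowered endothelial CSF2, with a difference of -3.14 ± 0.27 between both cytokines and TNFa alone (limma adjusted p = 4.8e-04), and the lines' own differences were -2.75 in iHUVEC and -3.53 in TIME. The comparison was chosen for this gene with earlier results of these data known, so its p-value is no independent evidence. CSF2 was the 1 member called of 6 tested, where 3.02% of all 15043 genes tested were lower and 0.877% higher. The median difference over all genes was -0.20, and 0.00 after scaling each library by median-of-ratios factors, where CSF2 differed by -2.71 (limma adjusted p = 8.0e-04). In a fit of endothelial libraries alone the limma adjusted p was 0.038. Mitochondrial genes held 14.2 and 17.5% of listed TPM in iHUVEC and TIME after TNFa and 11.9 and 15% after both cytokines, and their part in the difference was not tested, but with these genes removed CSF2 differed by -3.22 (limma adjusted p = 6.1e-04).

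The TNFa response of CSF2 was larger in endothelial than in AML lines by 4.79 ± 0.35 (limma adjusted p = 3.5e-05), the 1 member called among 6, where 0.153% of all genes had a larger and 0.106% a smaller endothelial response. CSF2 was tested only by being high in endothelial libraries with TNFa, so the direction was set beforehand and the count is no result. Its response to both cytokines differed by 1.65 ± 0.35 (limma adjusted p = 0.027), again 1 of 6, where 0.897% of all genes were higher and 1.38% lower. That second call was lost without Kasumi-1 (1.67, limma adjusted p = 0.058), NOMO-1 (1.67, 0.073) or THP-1 (1.63, 0.140), under median-of-ratios scaling (1.41, 0.052) and without the line term (1.65, 0.700).

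CSF1, or M-CSF, was the most abundant of the 7 genes in both endothelial lines in all 6 treated libraries, and the 1 colony stimulating factor to exceed 1 TPM in AML lines. In iHUVEC, CSF1 (ENSG00000184371, chromosome 1, 109910242 to 109930992, plus strand) had 3.68 TPM untreated, 23.0 after IFNg, 64.9 after TNFa and 85.5 after both cytokines. In TIME the levels were 7.5, 47.8, 52.2 and 123 TPM in the same order. Every treated endothelial library was above both untreated ones, and the highest level in each line was that after both cytokines. The share of all genes with such an order was not counted.

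In Kasumi-1 CSF1 was listed at 0 untreated, with 12.6 TPM after IFNg, 5.51 after TNFa and 40.9 after both. THP-1 had 0.173, 9.30, 1.54 and 9.02 TPM in that order. NOMO-1 stayed at or below 0.225 TPM in all 4 libraries. After IFNg, 2 of 3 AML lines were thus well above the untreated range and the third was not.

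CSF1 rose with both cytokines in endothelial lines by 4.04 ± 0.82 (limma adjusted p = 0.006), 23.2-fold in iHUVEC and 16.4-fold in TIME by the ratio of TPM. It rose with both cytokines in AML lines by 2.88 ± 0.67 (limma adjusted p = 0.009). After TNFa alone the endothelial difference was 3.23 ± 0.82 (limma adjusted p = 0.110), and after IFNg alone 2.44 ± 0.82 in endothelial (0.521) and 2.40 ± 0.67 in AML lines (0.205). The 20-library fit shares 1 spread over all lines, to which NOMO-1 adds: without NOMO-1 the limma adjusted p was 0.020 for TNFa in endothelial lines (3.23 ± 0.50) and 0.019 for IFNg in AML lines (3.45 ± 0.50). Without Kasumi-1 it was 0.033 for the former, and in endothelial libraries alone 0.015. The endothelial call after both cytokines was lost without iHUVEC (3.86, limma adjusted p = 0.175), without TIME (4.21, 0.206) and without the line term (4.04, 0.379), and the AML call without Kasumi-1 (1.63, 0.089), THP-1 (2.78, 0.059), iHUVEC or TIME (2.88, 0.052 each) and without the line term (2.88, 0.519).

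**Figure D2:**
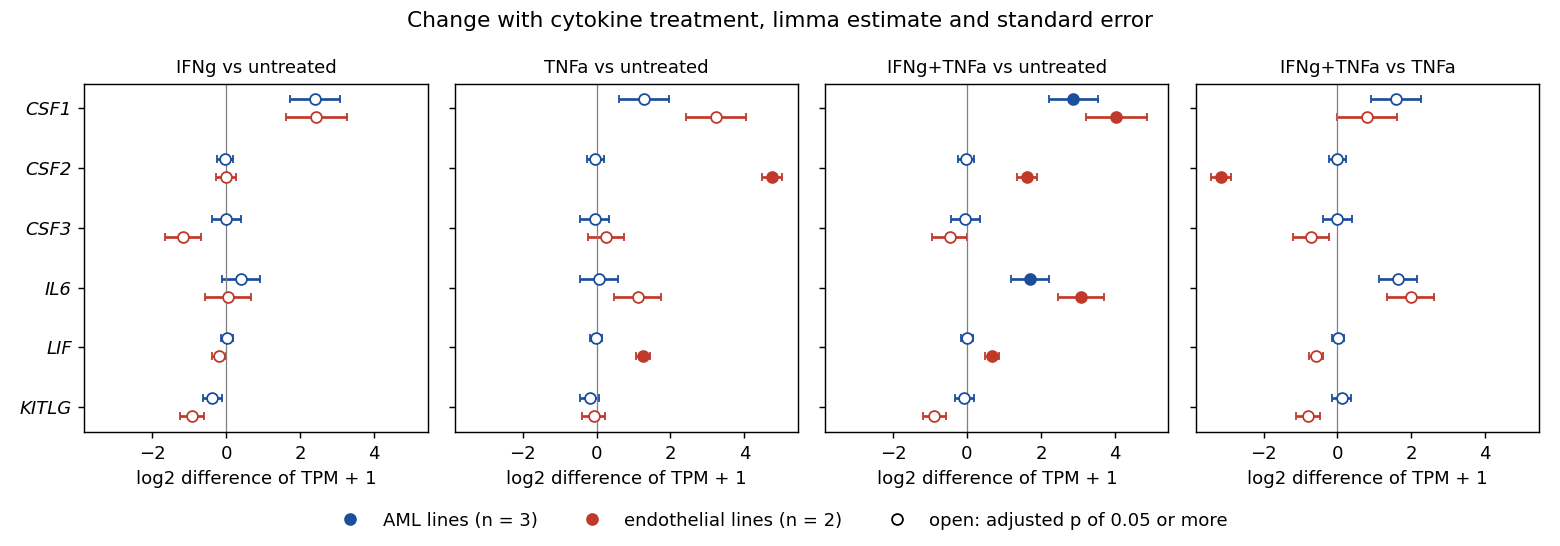
Differences of log2(TPM + 1) with treatment for the 6 tested cytokine genes, as limma estimates with standard errors, in AML (n = 3) and endothelial lines (n = 2); filled points had an adjusted p below 0.05. CSF2 rose by 4.76 after TNFa in endothelial lines and was lower by 3.14, plotted at -3.14, when IFNg was added.

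IL6, the acute phase cytokine, showed the opposite order to CSF2 in endothelial lines, with its highest level after both cytokines. IL6 (ENSG00000136244, chromosome 7, 22725884 to 22732002, plus strand) had 6.53 TPM untreated in iHUVEC, 7.42 after IFNg, 36.7 after TNFa and 75.7 after both. In TIME it had 5.39, 5.15, 4.91 and 44.2 TPM. TNFa alone thus went with a high level in iHUVEC and not in TIME, while both lines were high with both cytokines.

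IL6 rose with both cytokines in endothelial lines by 3.09 ± 0.63 (limma adjusted p = 0.006), which is 11.6-fold in iHUVEC and 8.20-fold in TIME. After TNFa alone the difference was 1.11 ± 0.63 (limma adjusted p = 0.975) and it was -0.11 without iHUVEC. Between both cytokines and TNFa alone the difference was 1.98 ± 0.63 (limma adjusted p = 0.107), with a ratio of 2.06 in iHUVEC and 9.01 in TIME. The call for both cytokines was lost without iHUVEC (2.82, limma adjusted p = 0.109), without TIME (3.35, 0.098), without the line term (3.09, 0.094) and with a pseudocount of 0.1 TPM (3.26, 0.090).

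In AML lines IL6 was listed at 0 in all 3 untreated libraries. After both cytokines Kasumi-1 had 3.60 TPM, NOMO-1 0.382 and THP-1 4.41. After TNFa it was listed at 0 in Kasumi-1 and THP-1 and at 0.148 TPM in NOMO-1, and after IFNg at 0, 1.05 and 0.145 TPM in Kasumi-1, NOMO-1 and THP-1. IL6 was therefore above 0 in all 3 AML lines only after both cytokines. IL6 rose with both cytokines by 1.70 ± 0.51 (limma adjusted p = 0.029), and the difference from TNFa alone was 1.63 ± 0.51 (limma adjusted p = 0.070, and 2.32 with 0.017 without NOMO-1). The rise was not called without Kasumi-1 (1.45, limma adjusted p = 0.140), THP-1 (1.33, 0.185), iHUVEC (1.70, 0.056) or TIME (1.70, 0.057), without the line term (1.70, 0.478) or with no filter on low values (1.70, 0.070).

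LIF, a cytokine that acts through LIFR and gp130 and holds mouse embryonic stem cells undifferentiated, peaked after TNFa alone in both endothelial lines, as CSF2 did. Its level there was far below that of CSF2. LIF (ENSG00000128342, chromosome 22, 30240447 to 30246851, minus strand) had 0.314 TPM untreated in iHUVEC, 0.0669 after IFNg, 1.97 after TNFa and 1.52 after both. TIME had 0.243, 0.195, 2.13 and 0.640 TPM. AML libraries reached at most 0.0804 TPM. In both endothelial lines the highest library was that with TNFa alone and the next that with both cytokines. The share of all genes with this order was not counted, and LIF was tested only by being high in such libraries.

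TNFa raised LIF in endothelial lines by 1.26 ± 0.19 (limma adjusted p = 0.006) and both cytokines by 0.67 ± 0.19 (0.035). The difference between them was -0.59 ± 0.19 (limma adjusted p = 0.117). The TNFa call was lost without THP-1 (1.26, limma adjusted p = 0.064), in endothelial libraries alone (1.26, 0.120) and without the line term (1.26, 0.096), and that for both cytokines also without Kasumi-1 (0.67, 0.060), NOMO-1 (0.67, 0.056) or THP-1 (0.67, 0.090), in endothelial libraries alone (0.67, 0.106), without the line term (0.67, 0.596) and with a pseudocount of 0.1 TPM (1.54, 0.077). IL11 (ENSG00000095752, chromosome 19, 55364389 to 55370463, minus strand), a cytokine known for its part in platelet formation and fibrosis, had at most 0.468 TPM, in TIME with both cytokines, and was not tested.

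CSF3, or G-CSF, reached 1 TPM in endothelial libraries only, and its level differed between the 2 lines under every treatment. CSF3 (ENSG00000108342, chromosome 17, 40015361 to 40017813, plus strand) had 2.94 TPM untreated in iHUVEC, 0.781 after IFNg, 5.90 after TNFa and 6.52 after both. In TIME it had 51.7, 22.5, 41.9 and 13.4 TPM. Every TIME library was above every iHUVEC library, and both lines were lower after IFNg than untreated. How many of all genes part the lines in this way was not counted. AML libraries reached at most 0.124 TPM.

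No treatment difference of CSF3 was called. It was -1.16 ± 0.48 after IFNg (limma adjusted p = 0.825), 0.26 ± 0.48 after TNFa (1.000) and -0.47 ± 0.48 after both cytokines (0.576). The last value joins opposite directions, 0.93 in iHUVEC and -1.87 in TIME, and the fit without TIME (limma adjusted p = 0.015) or without iHUVEC (8.3e-04) called each. For IFNg the fits without TIME (-1.14, limma adjusted p = 0.026) and without iHUVEC (-1.17, 0.038) both called a lower level, with 1 endothelial library per treatment and the spread taken from the AML lines, in which CSF3 is near 0.

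KITLG, stem cell factor, was expressed in both endothelial lines and lay lower in their libraries with IFNg than in those without. KITLG (ENSG00000049130, chromosome 12, 88492793 to 88580851, minus strand) had 5.86 TPM untreated in iHUVEC, 2.84 after IFNg, 6.21 after TNFa and 1.94 after both. In TIME it had 4.77, 1.87, 3.92 and 2.97 TPM. In both lines the 2 libraries with IFNg were below the 2 without it, an order for which the share of all genes was not counted.

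The endothelial differences of KITLG were -0.92 ± 0.32 after IFNg (limma adjusted p = 0.558), -0.88 ± 0.32 after both cytokines (0.085), -0.80 ± 0.32 for both cytokines against TNFa (0.207) and -0.08 ± 0.32 after TNFa (1.000). None was called. AML lines held 0.308 to 0.759 TPM untreated and between 0 and 1.08 TPM over all libraries, the highest in Kasumi-1 with both cytokines.

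Counted over the 6 tested genes, TNFa raised 2 in endothelial lines (CSF2 and LIF), where 0.784% of all genes rose and 0.239% fell, and the median difference was 1.18 against -0.03 over all genes. CSF2 and LIF were tested only by being high in endothelial libraries with TNFa alone or with both cytokines, so this count is no result. Both cytokines raised 4 in endothelial lines (CSF1, CSF2, IL6 and LIF, of which CSF2 and LIF entered in that way), where 4.18% of all genes rose and 10.3% fell, with medians of 1.15 and -0.22. IFNg alone moved none there, where 0.425% of all genes were called, nor in AML lines, where 0.645% were; an unadjusted limma p below 0.05 was found for 3 members in endothelial lines (CSF1, 0.011; CSF3, 0.033; KITLG, 0.013) and 1 in AML lines (CSF1, 0.004). In AML lines TNFa moved none of 6 in limma, where 0.0864% of all genes were called and the lowest unadjusted p of a member was 0.077 (CSF1), and both cytokines raised 2 (CSF1 and IL6), where 7.33% rose and 18.6% fell. Both cytokines against TNFa alone moved no member in AML lines, where 6.59% of all genes were called, with CSF1 and IL6 (limma unadjusted p = 0.035 and 0.007 in the fit over all genes) below 0.05 before adjustment. The median difference over all genes was -0.09 after IFNg in endothelial and -0.02 in AML lines, -0.05 after TNFa in AML lines, and -0.19 after both cytokines and -0.15 for both against TNFa in AML lines. Comparisons against untreated cells share the untreated libraries, and those of both cytokines share the IFNg+TNFa libraries.

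Before treatment IL6, CSF1 and KITLG were lower in AML than in endothelial lines. In 5 untreated libraries, 4 members could be tested, each of which reached 1 TPM in both endothelial lines and in no AML line, so that only members high in endothelial lines could enter and their number is no result. AML lines were lower in IL6 (-2.79 ± 0.43, limma adjusted p = 0.009), CSF1 (-2.58 ± 0.47, 0.017) and KITLG (-2.0 ± 0.50, 0.050, just below the threshold), where 7.47% of 12948 genes were lower and 1.02% higher. CSF3 differed by -3.80 ± 1.01 (limma adjusted p = 0.065). Mean levels were 5.96 ± 0.808 TPM (SD, n = 2) in endothelial and 0 in AML lines for IL6, 5.59 ± 2.70 and 0.0577 ± 0.0999 (n = 3) for CSF1, 5.32 ± 0.766 and 0.581 ± 0.240 for KITLG, and 27.3 ± 34.5 and 0.0334 ± 0.0579 for CSF3. The AML lines lay below the endothelial lines without overlap for all 4, as for 39% of all genes tested there. With no filter on low values IL6 was called (limma adjusted p = 0.043) and CSF1 (0.061) and KITLG (0.149) were not.

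After TNFa, 5 of 6 members were called lower in AML lines, where 7.14% of 12974 genes were lower and 0.948% higher, but CSF2, CSF3, IL6 and LIF reached 1 TPM in both endothelial and no AML library and so could be tested only by being high in endothelial lines. With no filter none of the 5 was called by limma (adjusted p from 0.056 for LIF to 0.149 for IL6). The differences were those of CSF2 (-4.76 ± 0.73, limma adjusted p = 0.004), CSF3 (-4.11 ± 0.81, 0.013), IL6 (-3.83 ± 0.81, 0.017), CSF1 (-4.52 ± 1.03, 0.024) and LIF (-1.60 ± 0.40, 0.033), while KITLG differed by -2.11 ± 0.58 (0.054). The median difference over all genes was -0.88 untreated and -0.93 after TNFa, and -0.04 and -0.06 after median-of-ratios scaling, under which 1 untreated member (IL6) and 2 after TNFa (CSF1 and CSF2) stayed below the threshold. Without iHUVEC or without TIME no member was called in either comparison, most of them then reaching 1 TPM in too few libraries to be tested, and CSF1 after TNFa differed by -4.36 (limma adjusted p = 0.496) and -4.67 (0.373). Without THP-1 the untreated calls of CSF1 (-2.66, limma adjusted p = 0.061) and KITLG (-2.09, 0.123) were lost, and after TNFa those of CSF1 (-4.50, 0.084), CSF3 (-4.11, 0.059), IL6 (-3.80, 0.071) and LIF (-1.61, 0.072). Without Kasumi-1 untreated KITLG was not called (-1.87, limma adjusted p = 0.064), nor were CSF3 (-4.11, 0.061) and IL6 (-3.90, 0.069) after TNFa without NOMO-1.

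CSF1 transcripts were mixed in a way that differed between treatments. Over the 14 libraries with at least 1 TPM of the gene, CSF1-201, which encodes the full 554-residue precursor of the secreted forms, held 75.8 ± 14.4% (SD) of CSF1 TPM. CSF1-205, which encodes the 256-residue form that stays longer on the cell surface, held at most 9.03%. CSF1-202, whose coding sequence is incomplete in GENCODE v29, held 42.5% in untreated iHUVEC and 37.1% in untreated TIME. Its share was 2.43 and 4.44% after IFNg, 15.1 and 25.4% after TNFa, and 4.88 and 10.7% after both. In Kasumi-1 it was 1.53% after IFNg, 37.3% after TNFa and 13.6% after both, and in THP-1 0, 24.8 and 0% in that order. In all 4 lines the share with IFNg was below that without it; these shares are estimates of how reads were divided between overlapping transcripts and were given no test.

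**Figure D3:**
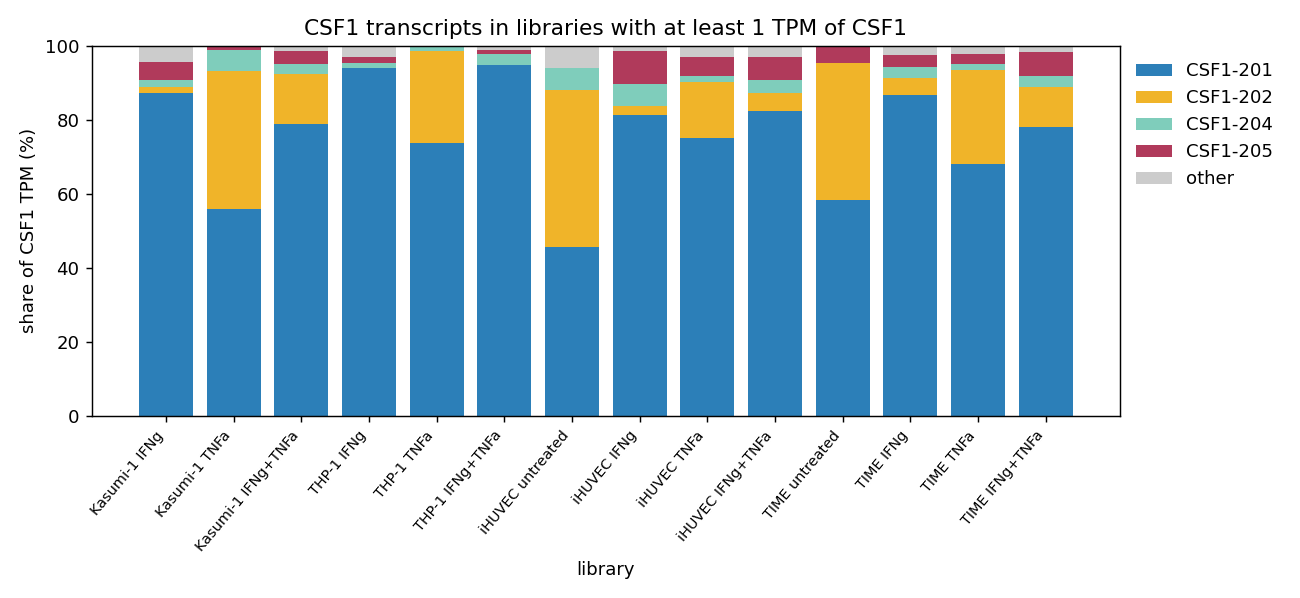
Share of CSF1 TPM held by each transcript, as stacked bars in the 14 libraries with at least 1 TPM of CSF1. CSF1-202 held 42.5% in untreated iHUVEC and 2.43% after IFNg, and CSF1-201 made up most of the rest.

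Of KITLG, the transcript with the long 273-residue form, KITLG-206, held 81.9 to 98.2% in endothelial libraries, and KITLG-202, the 245-residue form that lacks the main cleavage site and stays on the membrane, held 0 to 7.20%. LIF-201 held 87.1% of LIF and CSF3-204 35.4 ± 8.8% of CSF3, the highest mean share among its transcripts. IL6-201 held 40.5 ± 20.3% of IL6. CSF2 has 1 transcript in the table.

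Genes whose log2(TPM + 1) ran most like that of each member over the 20 libraries were named by Pearson's r among the 15043 tested genes. The r values below describe libraries that share lines and treatments. CSF2 was matched by the pseudogene ANKRD26P1 (0.953), C6orf58 (0.941) and the stromelysin gene MMP10 (0.902), which had 125 and 511 TPM after TNFa in iHUVEC and TIME and 11.9 and 197 TPM after both cytokines. CSF1 was matched by the autophagy receptor gene OPTN (0.953), ZNFX1 (0.951) and PML (0.942), all 3 highest within iHUVEC, TIME and Kasumi-1 after both cytokines. IL6 ran with TTC39B (0.957), the G-protein regulator RGS2 (0.95) and PTGS2 (0.930), the inducible cyclooxygenase, which had 7.61, 10.3, 111 and 171 TPM in iHUVEC and 0.979, 1.66, 5.16 and 238 TPM in TIME, in the order untreated, IFNg, TNFa and both. LIF ran with CLEC1A (0.937) and RHBDL2 (0.923). CSF3 ran with SCHIP1 (0.982), ZFHX4 (0.973) and the cadherin gene CDH13 (0.972), each higher in TIME than in iHUVEC under every treatment. KITLG ran with GGN (0.958) and the phosphodiesterase gene PDE8A (0.956).

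The levels of several receptors differed between the cell types. Untreated AML lines were higher in the receptor of G-CSF, CSF3R (6.37 ± 0.84, limma adjusted p = 0.005), and in that of M-CSF, CSF1R (2.95 ± 0.67, 0.036), while endothelial lines were higher in OSMR, IL6ST and LIFR, the signalling chains of oncostatin M, the IL-6 family and LIF (-3.08 ± 0.46, -5.16 ± 0.89 and -2.07 ± 0.46, limma adjusted p = 0.008, 0.013 and 0.033). These were 2 higher and 3 lower of 12 tested receptor genes, where 1.02% of all genes were higher and 7.47% lower, with a median of 0.41 against -0.88 over all genes. CSF3R and CSF1R reached 1 TPM in AML lines alone and OSMR and LIFR in endothelial lines alone, which is how each came to be tested, and with no filter the calls of CSF1R (limma adjusted p = 0.15), IL6ST (0.056) and LIFR (0.078) were lost. CSF3R had 107, 166 and 39.2 TPM in untreated Kasumi-1, NOMO-1 and THP-1 and 0 and 0.174 TPM in iHUVEC and TIME. After TNFa, 2 of 12 were higher in AML lines (CSF1R and CSF3R) and 2 lower (OSMR and IL6ST), with a median of 0.88, and none of these 4 was called by limma with no filter (adjusted p from 0.063 to 0.091). CNTFR, the receptor gene that was not tested, stayed at or below 0.0285 TPM.

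CSF2RB, the beta chain of the GM-CSF receptor, was present in iHUVEC and nearly absent from TIME. It had 15.3, 16.4, 32.8 and 82.6 TPM in iHUVEC and 0.0318, 0.0178, 0.204 and 1.40 TPM in TIME, untreated, after IFNg, TNFa and both. Its partner CSF2RA stayed at or below 1.17 TPM in both. In Kasumi-1 CSF2RB went from 11.7 TPM untreated to 126 TPM with both cytokines, in NOMO-1 from 0.794 to 6.11 and in THP-1 from 3.19 to 24.1. KIT, the receptor of stem cell factor, had 207 TPM in untreated Kasumi-1 and 69.5, 169 and 8.86 TPM after IFNg, TNFa and both, and at most 2.17 TPM in any library of another line.

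With both cytokines 4 of 12 receptors rose in endothelial lines, where 4.18% of all genes rose, with a median of 0.27: IL6ST (1.81 ± 0.33, limma adjusted p = 0.004), IL31RA (2.02 ± 0.56, 0.030), OSMR (1.09 ± 0.32, 0.039) and CSF2RB (1.79 ± 0.53, 0.041). In AML lines 2 rose, CSF2RB (2.63 ± 0.43, limma adjusted p = 0.002) and IL6ST (1.42 ± 0.27, 0.003), and 3 fell, IL11RA (-1.69 ± 0.29, 0.002), CSF3R (-1.58 ± 0.33, 0.005) and KIT (-2.09 ± 0.60, 0.023), with a median of 0.51 against -0.19 over all genes. Of all genes 7.33% rose and 18.6% fell in that comparison, so these counts of 12 are near the background. IFNg or TNFa alone moved none of 12 in either cell type by limma, and the numbers below an unadjusted p of 0.05 were 0 and 6 in AML and 1 and 2 in endothelial lines. The lowest adjusted p was 0.188, for IL27RA after TNFa in endothelial lines (1.26 ± 0.36). Adding IFNg to TNFa lowered 1, IL27RA, the IL-27 receptor, in endothelial lines (-1.75 ± 0.36, limma adjusted p = 0.020). It had 12.9 and 17.3 TPM after TNFa in iHUVEC and TIME and 3.66 and 3.84 TPM after both, the same order as CSF2.

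**Figure D4:**
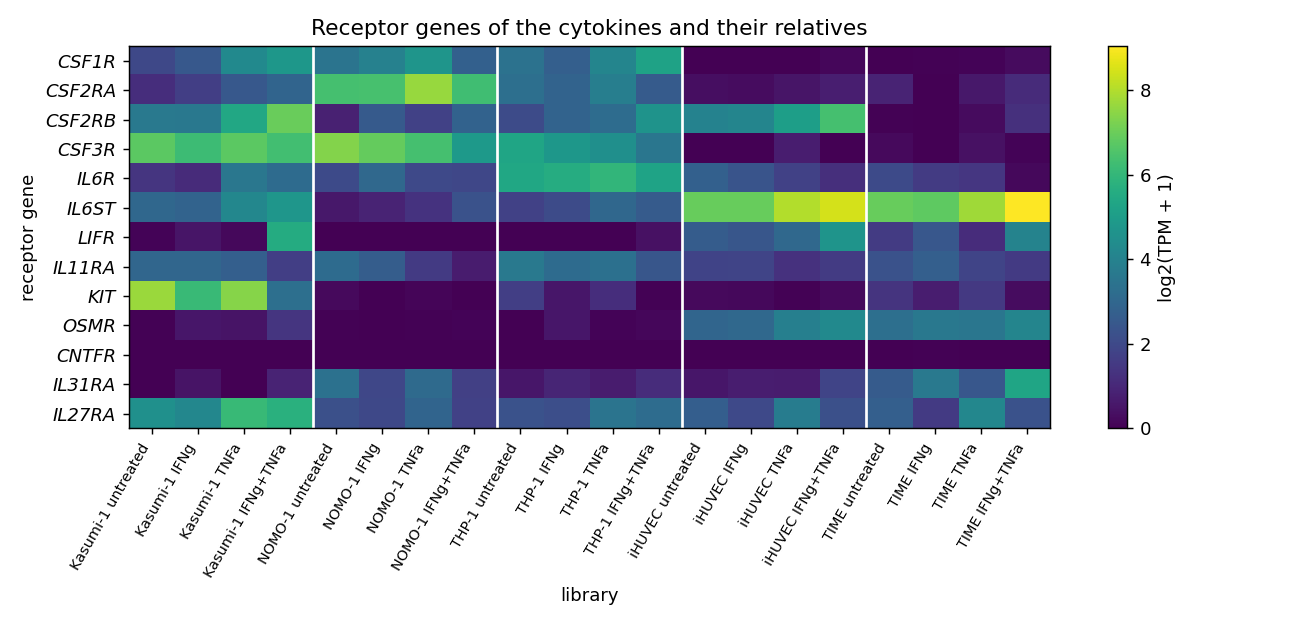
Levels of 13 receptor genes as log2(TPM + 1), by colour, in each of the 20 libraries, with white lines between cell lines. CSF3R was bright in AML lines (39.2 to 166 TPM untreated) and dark in endothelial lines, and IL6ST the reverse.

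Among 14 genes of related ligands, 8 could be tested. TNFa raised 2 in endothelial lines, where 0.784% of all genes rose, with a median of 0.00. IL34, the other ligand of CSF1R, had 0.0770 and 0.163 TPM untreated in iHUVEC and TIME and 3.29 and 3.24 TPM after TNFa (1.93 ± 0.27, limma adjusted p = 0.003). EBI3, a subunit of IL-27, had 0.694 and 0.0809 TPM untreated and 55.2 and 54.5 TPM after TNFa (5.37 ± 1.03, limma adjusted p = 0.025). That EBI3 call was lost with a pseudocount of 0.1 TPM (7.18, limma adjusted p = 0.056) and with no filter (5.37, 0.060). It was also lost without the line term (5.37, limma adjusted p = 0.145) and without THP-1 (5.37, 0.124). The difference was 5.68 without iHUVEC and 5.05 without TIME. In endothelial libraries alone IL34 was not called after TNFa (1.93, limma adjusted p = 0.089). Both cytokines raised IL34 (2.09 ± 0.27, limma adjusted p = 3.7e-04), EBI3 (6.58 ± 1.03, 0.001) and FLT3LG, the ligand of FLT3 (2.04 ± 0.50, 0.017), with a median of 0.44, where 4.18% of all genes rose. IL34 reached 1 TPM in endothelial libraries with TNFa alone or with both cytokines and in no other, so it was tested only by being high there.

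In AML lines both cytokines lowered 1 of the 8 and raised 3, EBI3 (5.95 ± 0.84, limma adjusted p = 7.9e-04), IL27, its partner subunit (2.03 ± 0.48, 0.010), and FLT3LG (1.28 ± 0.41, 0.037), with a median of 0.08 over the 8, where 7.33% of all genes rose and 18.6% fell. IL27 was listed at 0 in every endothelial library. It reached 1 TPM only in AML libraries with IFNg alone or with both cytokines, so it was tested only by being high there. After TNFa alone EBI3 went from 0 to 99.9 TPM in Kasumi-1, 0 to 8.76 in NOMO-1 and 0.166 to 21.4 in THP-1. That difference missed the threshold (4.74 ± 0.84, limma adjusted p = 0.063) and was called with a pseudocount of 0.1 TPM (7.59, 0.020), a filter of 5 TPM (4.74, 0.047), median-of-ratios scaling (5.13, 0.006), mitochondrial genes removed (5.67, 0.009), and without Kasumi-1 (3.78, 0.048) or NOMO-1 (5.46, 0.044). Against TNFa alone, IL27 (2.0 ± 0.48, limma adjusted p = 0.031) and FLT3LG (1.60 ± 0.41, 0.039) rose in AML lines, where 6.59% of all genes were called. None of the 8 was called by limma with IFNg in AML or endothelial lines (3 and 2 below an unadjusted p of 0.05), with TNFa in AML lines (2, EBI3 among them) or with IFNg added to TNFa in endothelial lines (1), and FLT3LG had the lowest limma adjusted p after IFNg (1.46 ± 0.41, 0.205 in AML; 2.09 ± 0.50, 0.144 in endothelial lines). Between cell types none of 3 testable ligands was called untreated by limma (1 below an unadjusted p of 0.05, CLCF1, -1.42 ± 0.59, limma adjusted p = 0.216).

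Of 17 genes of JAK-STAT signalling and its feedback, 3 rose when IFNg was added to TNFa in endothelial lines, the comparison in which CSF2 fell and 0.877% of all genes rose, with a median of 0.56 against -0.20 over all genes. They were CEBPD, a transcription factor of the acute phase response (2.04 ± 0.43, limma adjusted p = 0.022), and the inhibitors SOCS3 (2.95 ± 0.71, 0.038) and SOCS1 (3.02 ± 0.73, 0.039). SOCS3 had 17.5 and 4.59 TPM after TNFa in iHUVEC and TIME and 87.2 and 68.8 TPM after both. SOCS1 had 3.84 and 8.48 TPM after TNFa and 18.1 and 157 TPM after both. The 7 genes raised by both cytokines over untreated endothelial cells included STAT5A (1.89 ± 0.38, limma adjusted p = 0.006), with a median of 0.91, while IFNg alone raised 1 (median 0.46) and TNFa alone none by limma (median 0.30, 2 below an unadjusted p of 0.05). After both cytokines 4.18% of all genes rose there, after TNFa 0.784% rose, and after IFNg 0.425% were called.

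In AML lines IFNg raised 5 of the 17, among them SOCS1 (5.06 ± 0.60, limma adjusted p = 0.001), PIM1 (3.60 ± 0.51, 0.005) and STAT3 (1.61 ± 0.26, 0.012), with a median of 0.87. TNFa raised BCL3 (2.82 ± 0.46, limma adjusted p = 0.040, median 0.23), both cytokines raised 8 (median 0.92) and 7 rose when IFNg was added to TNFa (median 0.90). The BCL3 call after TNFa was lost with no filter (2.82, limma adjusted p = 0.126) and in AML libraries alone (2.82, 0.162). It was also lost without Kasumi-1 (2.59, limma adjusted p = 0.120) or THP-1 (2.67, 0.373). After IFNg 0.645% of all genes were called, after TNFa 0.0864% and for IFNg added to TNFa 6.59%, while 7.33% rose after both cytokines. The response to both cytokines was larger in endothelial lines for CEBPD (3.18 ± 0.56, limma adjusted p = 0.011) and smaller for PIM1 (-4.01 ± 0.81, 0.021). Untreated AML lines were higher in PTPN6 (5.91 ± 1.17, limma adjusted p = 0.022) and CEBPD (3.01 ± 0.68, 0.037) and lower in JAK1 (-3.66 ± 0.84, 0.038) and SOCS3 (-3.00 ± 0.70, 0.042), and after TNFa higher in PTPN6 (5.68 ± 1.19, 0.017). In both of these fits PTPN6 reached 1 TPM in AML lines alone, and untreated SOCS3 did so in endothelial lines alone. That is how each came to be tested, so these directions were set beforehand.

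A list of 12 genes for cytokine mRNA decay and stability also held TNFAIP3, or A20, a ubiquitin-editing inhibitor of NF-kB signalling, and DUSP1, a phosphatase of MAP kinases, which act on signalling and not on mRNA. It included none called by limma when IFNg was added to TNFa in endothelial lines, with a median of 0.63 and 6 of them below an unadjusted p of 0.05. ZFP36, or tristetraprolin, which is known to speed the decay of cytokine mRNAs with AU-rich elements, had 21.0 and 6.64 TPM after TNFa in iHUVEC and TIME and 43.0 and 106 TPM after both (2.40 ± 0.81, limma adjusted p = 0.128; unadjusted p = 0.011). Both cytokines over untreated endothelial cells raised 3, TNFAIP3 (5.60 ± 0.58, limma adjusted p = 9.7e-05), ARID5A (2.60 ± 0.52, 0.006), known to stabilise IL6 mRNA, and ZC3H12A (1.96 ± 0.46, 0.013), a ribonuclease known to cut it, and lowered KHSRP (-0.91 ± 0.22, 0.017), with a median of 0.46, where 4.18% of all genes rose and 10.3% fell. TNFa alone raised TNFAIP3 (3.96 ± 0.58, limma adjusted p = 0.004, median -0.05) and IFNg alone none by limma, nor at an unadjusted p of 0.05 (0 of 12, median -0.07).

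In AML lines both cytokines raised 6 of the 12, led by TNFAIP3 (4.02 ± 0.47, limma adjusted p = 2.8e-04) and ZC3H12A (3.04 ± 0.38, 3.6e-04), and lowered 2, with a median of 1.03. There 7.33% of all genes rose and 18.6% fell, so the count lowered is near the background. TNFa alone raised TNFAIP3 (4.01 ± 0.47, limma adjusted p = 0.006, median 0.21), IFNg none by limma (median 0.17, 3 below an unadjusted p of 0.05), and adding IFNg to TNFa raised ZC3H12A, ARID5A and DUSP1 (1.71 ± 0.38, 1.81 ± 0.42 and 1.29 ± 0.32, limma adjusted p = 0.023, 0.029 and 0.034, median 0.11), where 6.59% of all genes were called. Untreated AML lines were lower in ZFP36L1 (-5.48 ± 0.97, limma adjusted p = 0.015) and DUSP1 (-4.33 ± 0.84, 0.021).

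Of 16 NF-kB and AP-1 genes, TNFa raised 3 in endothelial lines, RELB (3.28 ± 0.45, limma adjusted p = 0.003), the inhibitor NFKBIA (2.95 ± 0.59, 0.031) and JUNB (2.27 ± 0.49, 0.047), with a median of 0.47, and 2 in AML lines, RELB (2.95 ± 0.37, 0.007) and NFKBIA (3.43 ± 0.48, 0.013), with a median of 0.21. Both cytokines raised 6 of the 16 in endothelial (median 1.12) and 8 in AML lines (median 1.35), where 4.18% and 7.33% of all genes rose. After TNFa alone 0.784% of all genes rose in endothelial lines and 0.0864% were called in AML lines. None was called by limma between both cytokines and TNFa alone in endothelial lines (median 0.19, 2 below an unadjusted p of 0.05). RELB had 54.6 and 58.4 TPM after TNFa in iHUVEC and TIME and 51.8 and 54.2 TPM after both. ATF3 was higher after both, going from 18.7 and 8.63 to 57 and 120 TPM. FOSL1 was lower, going from 108 and 124 to 90.5 and 43.4 TPM. Adding IFNg to TNFa in AML lines raised ATF3 (4.15 ± 0.63, limma adjusted p = 0.004), BATF3 (3.26 ± 0.77, 0.029) and JUNB (1.47 ± 0.40, 0.047), with a median of 0.51, where 6.59% of all genes were called, and IFNg alone had none called by limma in AML or endothelial lines (5 and 2 below an unadjusted p of 0.05). Untreated AML lines were higher in BATF (3.88 ± 0.92, limma adjusted p = 0.043) and lower in FOSL1 (-4.19 ± 0.87, 0.027) and JUN (-4.69 ± 1.12, 0.044), whose response to both cytokines was smaller in endothelial lines (-2.69 ± 0.50, 0.015). Untreated BATF reached 1 TPM in AML lines alone, so it was tested only by being high there. With no filter on low values, 8 of the 9 untreated differences between cell types given for the JAK-STAT, mRNA decay and NF-kB lists were not called (limma adjusted p from 0.066 to 0.160), all but CEBPD.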

How the data were processed

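RNA of 20 libraries (5 lines, 4 treatments) was measured by Illumina sequencing, per the labels' protocols. The authors deposited TPM values per gene and per transcript; the submitters' processing notes name Salmon 1.2.0, DESeq2 1.28.1 and GRCh38 p13, and no annotation release (not given in the sources used here). TPM keeps no total, so depth is unknown and no counting error could be given; the number of lines limits the precision. Columns marked x2 were read as IFNg+TNFa, since every other treatment had its own column in each line.

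On the log2(TPM + 1) scale, limma 3.58.1 (R 4.3.3) gave moderated tests with a variance trend; Python 3.11.15 with pandas 2.3.3 served for tables and matplotlib 3.10.9 for figures. A gene entered a fit when it had 1 TPM or more in at least 2 of its libraries. Benjamini-Hochberg adjustment was made within each of 12 comparisons, with calls below 0.05. Treatments were compared in 1 fit of 20 libraries with terms for the line and for treatment within cell type, which shares 1 spread per gene over both cell types. AML and endothelial lines were compared within the 5 untreated and within the 5 TNFa libraries. The line term pairs libraries by the labels: deviations from group means correlated between 0.65 and 0.90 in the 30 pairs of libraries of 1 line. The procedure was checked on simulated data.

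All 7 members are described, with the 3 genes most correlated with each, and up to 4 called genes of each list per comparison with the smallest adjusted p (or the 1 smallest where none was called); genes outside this rule were named to complete a count. Some genes that the rule names are not reported here. The members and lists were chosen with earlier results of these data known. GENCODE v29 on GRCh38 gave coordinates and transcripts, and its patch may differ from that of the authors. Alternatives were a pseudocount of 0.1 TPM, no filter, a filter of 5 TPM, median-of-ratios scaling, removal of mitochondrial genes, no variance trend, no line term, 1 cell type alone, and each line left out.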

Additional observations from a re-analysis of the deposited data

Results flagged for a closer look

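The responses of CSF2 differed between cell types by a test of the difference itself, by 4.79 on the log2 scale for TNFa and 1.65 for both cytokines, endothelial minus AML. CSF2 was listed at 0 in every treated AML library. It was tested only by being high in endothelial libraries with TNFa, so the direction of these differences was set beforehand.

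Among members that reached 1 TPM in each endothelial line, the 2 lines moved in opposite directions by at least 0.1 each in 4 cases, which were not tested, since each line has 1 library per treatment. CSF3 changed by 0.81 in iHUVEC and -0.30 in TIME after TNFa, a gap of 1.11, by 0.93 and -1.87 after both cytokines, a gap of 2.80, and by 0.12 and -1.57 between both cytokines and TNFa alone, a gap of 1.70. IL6 changed by 2.33 in iHUVEC and -0.11 in TIME after TNFa, a gap of 2.44. Outside these limits, IL11, below 1 TPM, changed by -0.28 in iHUVEC and 0.35 in TIME between both cytokines and TNFa alone, KITLG by 0.07 and -0.23 after TNFa, and IL6 by 0.16 and -0.06 after IFNg.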

How the results depend on the processing

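Of 70 results of single members, 19 were called. Of these, 4 kept their direction and side of the threshold under every alternative run, 15 fell short of it under at least 1, and none reversed. The 4 were untreated IL6 between cell types and, for CSF2, the endothelial TNFa change, its TNFa response difference and both against TNFa. CSF2 was tested only through endothelial libraries with TNFa. Untreated IL6 could not be tested without iHUVEC or without TIME. Of 51 not called, 11 passed the threshold under at least 1 alternative and 13 reversed under at least 1. Calls of genes in the other lists were also lost or gained under alternatives, and only some of these changes are given. The fall of CSF2 between TNFa and both cytokines in endothelial lines was -3.60 to -2.71 over all 13 alternatives. It was called under every alternative that kept both endothelial lines (limma adjusted p from 2.9e-04 to 0.038). Without the replicate block for the line it was -3.14 (limma adjusted p = 0.002). The fits without iHUVEC (-3.53) and without TIME (-2.75) held 1 endothelial library per treatment. This comparison was chosen for CSF2 with earlier results of these data known, so its p-values are no independent evidence.

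The number of members called changed by more than 1.5 times as follows, and by 1.5 times or less in 4 other cases outside the lines left out. With a pseudocount of 0.1 TPM it was 1 in place of 0 after IFNg in AML lines, 2 in place of 4 after both cytokines in endothelial lines and 1 in place of 0 for both against TNFa in AML lines. With no filter it was 1 in place of 2 after both cytokines in AML lines, 2 in place of 1 for the difference in TNFa response, 1 in place of 3 between untreated cell types and 0 in place of 5 after TNFa. With a filter of 5 TPM, under which fewer members are tested, it was 1 in place of 2 after TNFa in endothelial lines, 1 in place of 3 untreated and 3 in place of 5 after TNFa between cell types. Median-of-ratios scaling gave 1 in place of 0 for both against TNFa in AML lines, 0 in place of 1 for the difference in response to both, and 1 and 2 in place of 3 and 5 between cell types, the same 2 counts as with no variance trend. Removing mitochondrial genes gave 1 in place of 0 for both against TNFa in AML lines. Without the replicate block it was 0 in place of 2 and of 4 after both cytokines in AML and endothelial lines, 1 in place of 2 after TNFa in endothelial lines and 0 in place of 1 for the difference in response to both; the block changed no other count. Smaller changes were 2 in place of 3 untreated without mitochondrial genes, where KITLG was lost (-1.77, limma adjusted p = 0.157), 4 in place of 5 after TNFa between cell types with a pseudocount of 0.1 TPM, where CSF1 was lost (limma adjusted p = 0.066), and with that pseudocount CSF3 (0.031) took the place of KITLG (0.116) untreated. There were also 3 members in place of 4 after both cytokines in endothelial lines with a filter of 5 TPM and in endothelial libraries alone. The causes were not tested.

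Leaving out 1 line at a time gave 0 to 1 members after IFNg in either cell type, 0 to 2 after both cytokines in AML lines, 1 to 3 after TNFa and 2 to 3 after both in endothelial lines, 0 to 2 and 1 to 2 for both against TNFa in AML and endothelial lines, 1 to 2 and 0 to 3 for the differences in response to TNFa and to both, and 0 to 3 untreated and 0 to 5 after TNFa between cell types. With 1 endothelial line, its spread is taken from the AML lines.

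Leaving out single lines turned the direction of some uncalled values. The ranges were -0.39 (without THP-1) to 0.08 (NOMO-1) for KITLG after TNFa in AML lines, -0.44 (Kasumi-1) to 0.26 (NOMO-1) after both cytokines and -0.19 (Kasumi-1) to 0.37 (THP-1) for both against TNFa. In endothelial lines, without iHUVEC and without TIME, CSF3 was -0.30 and 0.81 after TNFa, -1.87 and 0.93 after both and -1.57 and 0.12 for both against TNFa, and IL6 was -0.11 and 2.33 after TNFa. Differences in response to TNFa without iHUVEC and without TIME were -0.25 and 0.86 for CSF3 and -0.18 and 2.26 for IL6, and that of KITLG ran from -0.16 (without NOMO-1, and -0.05 without iHUVEC) to 0.31 (THP-1). Differences in response to both were -0.20 (without NOMO-1) to 2.40 (Kasumi-1) for CSF1 and -1.82 (iHUVEC) to 0.98 (TIME) for CSF3. With a pseudocount of 0.1 TPM, those of CSF1 and IL6 were -0.71 and -1.06.

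Over all genes, median-of-ratios scaling turned the calls after both cytokines from 629 higher and 1549 lower to 1006 and 672 in endothelial lines, from 1103 and 2804 to 2308 and 2187 in AML lines, and for both against TNFa from 132 and 455 to 209 and 161 in endothelial lines. TPM keeps no depth, so values near 0 carry no counting limit here.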
